A study of Mus musculus with 4 samples.

Results

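The transcripts of 9 genes of the p53 response and of the cyclin-dependent kinase (CDK) inhibitors that mark senescence were followed in lung cells of young and aged mice, nonventilated or ventilated. The members were Cdkn1a, Cdkn2a, Cdkn2b, Mdm2, Ccng1, Phlda3, Gadd45a, Gadd45b and Sfn, chosen by their symbols among the 32285 genes of the deposited matrices, and all 9 had counts. Each gene was summed per library and per cell class.

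p53 is a transcription factor that is held at low levels by the ubiquitin ligase Mdm2 and accumulates after DNA damage and other stress, when it activates genes that stop the cell cycle, repair DNA or start cell death. Cdkn1a encodes p21, the inhibitor of cyclin-CDK complexes through which p53 arrests cells in G1, and the Cdkn2a and Cdkn2b locus encodes the CDK4 and CDK6 inhibitors p16Ink4a and p15Ink4b, together with p19Arf, which binds Mdm2. In the lung, p21 and p16 are commonly read as markers of senescent cells, and several of these genes can also be induced without p53.

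Cells came from the left lung lobe of male C57BL/6 wild-type mice, either 2 to 3 months (young) or 22 months (aged) of age. A restricted diet is stated for the mice without separating the ages. Nonventilated mice were naive, and ventilated mice received 3 hours of mechanical ventilation with a large tidal volume, no end-expiratory pressure and pure oxygen under ketamine and medetomidine anesthesia with buprenorphine. Cells of 3 mice were pooled for each of the 4 libraries, 1 per group, and were frozen and thawed before droplet-based scRNA-Seq, in which unique molecular identifiers (UMIs) count captured transcripts at their 3′ ends. With 1 library per group no test was possible, and age, ventilation, anesthesia, oxygen and the particular pool cannot be told apart from the library.

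The libraries held 3400 to 4497 barcodes and 40655452 to 45218176 UMIs. Keeping barcodes that had between 200 and 5000 genes, no more than 10% of UMIs from mitochondrial genes and no more than 21021 UMIs left 1960 to 2750 cells per library and 9514 in all, with median depths of 7236.5 to 8370.5 UMIs. They formed 31 clusters, from which 21 classes were named for their marker genes and 18 with at least 10 cells in each library were compared. A class name stands for cells like that type. The 726 cells of 3 clusters were not named. Among kept cells, 8 barcodes occurred in more than 1 library. In 4 classes the largest cluster differed between ventilated and nonventilated libraries. These were general capillary cells (clusters 1 and 0), alveolar fibroblasts (3 and 4), nonclassical monocytes (7 and 5) and classical monocytes (18 or 20 and 19). The split was not complete. Cluster 18 held 92 ventilated and 6 nonventilated cells of young mice, but 30 and 54 of aged mice. Cluster 9, also of alveolar fibroblasts, held 89 and 83 cells of young mice, and 83 and 82 of aged mice.

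Levels are counts per 1000000 UMIs of the class and library (CPM), and changes are ratios of CPM. Intervals are 95% intervals that cover counting error only, not the difference between mice or pools, and are exact except for that of the ratio between the aged and the young response, which is approximate. A gene was called higher or lower in a class where the 2 libraries compared held at least 20 of its UMIs, its CPM ratio was at least 2-fold, and the interval of the ratio left out 1. Because transcripts were counted at 3′ ends and not per length, levels were compared between cells and not between genes.

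The members lie on 6 chromosomes of the mm10 (GRCm38) build. All are protein-coding genes. The CDK inhibitor genes were Cdkn1a at chr17:29090976-29100727 on the plus strand, and Cdkn2a at chr4:89274471-89294653 beside Cdkn2b at chr4:89306299-89311039, both on the minus strand. Counting at 3′ ends does not separate the p16Ink4a and p19Arf transcripts of Cdkn2a, which share their last exons. The feedback gene Mdm2 lay at chr10:117688875-117710758 and Ccng1 at chr11:40748552-40755311, both on the minus strand, and Phlda3 at chr1:135766119-135769136 on the plus strand. The growth arrest genes were Gadd45a at chr6:67035096-67037457 on the minus strand and Gadd45b at chr10:80930073-80932204 on the plus strand, and Sfn lay at chr4:133600556-133602168 on the minus strand. Cdkn1a and Gadd45a each overlap a gene on the opposite strand, by 1046 and 859 bases.

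The promoter letters of the members were read to show which of them carry the p53 consensus decamer, the unit that p53 dimers bind. In RefSeq windows from 250 bases before to 50 bases after the start site (GRCm38.p6), the decamer, which reads the same on both strands, occurred in 4 of the 11 windows of the members (36.4%) and in 2745 of 32851 windows of all genes (8.36%). The members with a decamer were Cdkn1a, Mdm2, Ccng1 and Gadd45a, and the stretches that hold it are printed here, 5′ to 3′ on the strand of the gene, with the decamers in capitals. They are chr17:29090729-29090975 (plus), chr10:117710759-117711008 (minus), chr11:40755312-40755536 (minus) and chr6:67037428-67037457 (minus).
Cdkn1a: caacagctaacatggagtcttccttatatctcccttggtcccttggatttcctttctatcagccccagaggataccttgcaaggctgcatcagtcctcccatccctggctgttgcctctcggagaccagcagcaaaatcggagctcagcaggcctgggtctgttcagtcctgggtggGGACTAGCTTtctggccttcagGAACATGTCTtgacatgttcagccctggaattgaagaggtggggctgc
Mdm2: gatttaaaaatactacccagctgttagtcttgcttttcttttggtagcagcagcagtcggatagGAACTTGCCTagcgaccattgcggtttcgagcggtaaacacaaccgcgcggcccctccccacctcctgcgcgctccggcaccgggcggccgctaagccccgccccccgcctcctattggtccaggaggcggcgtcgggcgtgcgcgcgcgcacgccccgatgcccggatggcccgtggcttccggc
Ccng1: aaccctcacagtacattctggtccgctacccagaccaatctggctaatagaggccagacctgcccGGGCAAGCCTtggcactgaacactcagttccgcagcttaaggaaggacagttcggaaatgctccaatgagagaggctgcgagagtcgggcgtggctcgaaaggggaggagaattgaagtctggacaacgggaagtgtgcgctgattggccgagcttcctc
Gadd45a: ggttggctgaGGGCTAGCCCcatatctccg
In Cdkn1a, the decamers begin at positions -73 and -51 from the upstream start site at 29090979, and the window of the downstream start site at 29093769, 2790 bases away, held none. The decamers of Mdm2, Ccng1 and Gadd45a begin at positions -186, -185 and -40. That of Gadd45a lies upstream of the RefSeq start site used here but inside the annotated gene interval given above. The well-known p53-responsive promoter of Mdm2 lies in its first intron, outside this window. No decamer was found in the windows of Cdkn2a, Cdkn2b, Phlda3, Gadd45b and Sfn, which says only that these letters are absent there. A match is a description of the sequence, and binding was not measured.

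To see how the response to ventilation was spread over the members, every member was compared in every class. In young mice, 95 of the 162 gene-class pairs had enough counts, of which 30 (31.6%) were called higher after ventilation and 5 (5.26%) lower. Over all genes, 8.76% of pairs were called higher and 13.8% lower by the same rule. The median log2 ratio was 0.41 over the pairs of the members and -0.10 over all pairs. In aged mice, 11 of 93 pairs (11.8%) were called higher and 5 (5.38%) lower, beside 5.71% and 9.54% of all pairs, with medians of 0.13 and -0.06. Of the 30 calls in young mice, 10 were of Cdkn1a, 10 of Gadd45b and 6 of Gadd45a.

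**Figure D1:**
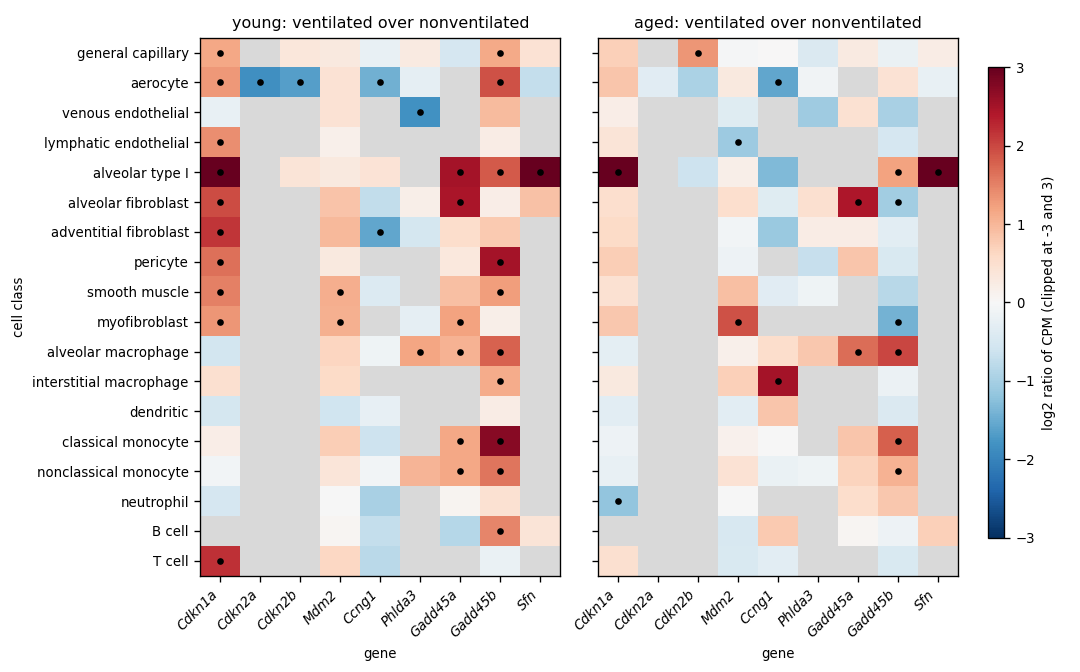
Log2 ratio of CPM, ventilated over nonventilated, for the 9 genes (columns) in the 18 cell classes (rows), in young (left) and aged (right) mice; red is higher after ventilation, dots mark calls and gray marks pairs with under 20 UMIs. Dots cover 30 higher and 5 lower pairs in young mice, and 11 higher and 5 lower pairs in aged mice.

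In young mice Cdkn1a was called higher after ventilation in 10 of the 17 classes with enough counts, which were general capillary cells, aerocytes, lymphatic endothelial cells, type I cells, alveolar and adventitial fibroblasts, pericytes, smooth muscle cells, myofibroblasts and T cells. In aged mice it was called higher in type I cells alone and lower in neutrophils. Over all cells its level was 216.8 CPM in young nonventilated, 396.5 in young ventilated, 258.2 in aged nonventilated and 350.2 in aged ventilated mice. Both ventilated libraries lay above both nonventilated ones. The ratio was 1.83 (interval 1.77 to 1.90) in young and 1.36 (1.31 to 1.41) in aged mice, short of a 2-fold difference. With each cell thinned to 2000 UMIs, 24.7%, 39.6%, 29.9% and 35.4% of cells had a Cdkn1a UMI, and cells below that depth (270, 447, 252 and 242) were left out. B cells, with 4 to 8 Cdkn1a UMIs per library, gave thinned shares of 1.06%, 6.90%, 1.05% and 1.28%.

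Aerocytes, the capillary cells of the gas-exchange surface, held the highest Cdkn1a level of any class in young nonventilated lungs, at 660.2 CPM (619.9 to 702.4). Dendritic cells came next at 640.0 (572.6 to 713.2) and did not differ from aerocytes beyond the counting error, whereas interstitial macrophages, at 400.9, lay below both. In aerocytes, Cdkn1a was at 660.2 CPM in young nonventilated, 1632 in young ventilated, 881.9 in aged nonventilated and 1569 in aged ventilated cells, and 61.1%, 86.7%, 75.3% and 87.6% of thinned cells had a UMI. The ratio was 2.47 (2.29 to 2.67) in young and 1.78 (1.63 to 1.94) in aged mice. General capillary cells, which can give rise to aerocytes in repair, were at 232.6, 523.9, 324.5 and 534.7 CPM, with ratios of 2.25 in young and 1.65 in aged mice. In both capillary classes the ventilated libraries of the 2 ages lay close together, and the aged nonventilated library lay above the young one by 1.40-fold in general capillary cells and 1.34-fold in aerocytes. The summed level of 7 aerocyte markers within general capillary cells moved with ventilation as well, at 500.2, 1276, 582.5 and 1257 CPM, and its part in the Cdkn1a values was not tested. Venous endothelial cells stood apart at 273.6, 232.5, 305.4 and 352.8 CPM, with no call.

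Alveolar type I cells, the thin epithelium opposite the aerocytes, had 3 Cdkn1a UMIs in young nonventilated, 126 in young ventilated, 18 in aged nonventilated and 67 in aged ventilated cells, or 8.46, 257.2, 39.0 and 360.4 CPM. The ratio was 30.4 (10.2 to 149) in young and 9.24 (5.42 to 16.5) in aged mice, over 14 to 36 cells per library. In the class 1 cell held 11 of the 18 UMIs of aged nonventilated mice. The limits on genes and UMIs left out 544 to 671 deep barcodes per library, and among these the barcodes nearest to type I cells by marker profile (17 to 36 per library) had 154.3, 414.5, 109.4 and 451.1 CPM. There the ratio was 2.69 (2.14 to 3.39) in young and 4.13 (3.35 to 5.11) in aged mice, and the aged over young ratio in nonventilated mice, 4.61 in kept cells, was 0.709 (0.544 to 0.924). The response was called in both sets at both ages, while its size and the age difference at baseline depended on the set. Marker levels differed between the sets. In the deep barcodes nearest to type I, the 7 general capillary markers summed to 751.5, 937.1, 653.4 and 455.7 CPM. In kept type I cells these markers summed to 19.7, 55.1, 52.0 and 16.1 CPM. The 8 type I markers summed to 16123, 11685, 14056 and 10155 CPM in the deep barcodes. In kept type I cells they summed to 28207.2, 21383.8, 26806.5 and 26214.2 CPM. The part of either list in the Cdkn1a values was not tested. The baseline call of 4.61-fold was also lost when 5% background RNA was taken off. The deep barcodes that fell nearest to type II cells (25 to 40 per library) went against that name. Their 5 secretory airway markers summed to 316028, 172458, 233673 and 121741 CPM, and their 8 type II markers to 33211, 26531, 36876 and 48741 CPM, so they are called secretory airway-rich here. They had 59, 343, 164 and 471 Cdkn1a UMIs and were called higher at 4.83-fold (3.65 to 6.48) in young and 3.06-fold (2.56 to 3.68) in aged mice.

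Mesenchymal classes also differed by age in Cdkn1a. In alveolar fibroblasts it was at 63.5 CPM in young nonventilated, 248.3 in young ventilated, 137.6 in aged nonventilated and 194.5 in aged ventilated cells, so that both ventilated libraries lay above both nonventilated ones and the aged libraries lay between the young ones. The ratio was 3.91 (3.44 to 4.47) in young and 1.41 (1.25 to 1.60) in aged mice, and the aged over young ratio at baseline was 2.17 (1.87 to 2.52). A single cell held 43 of the 279 UMIs (15.4%) of young nonventilated fibroblasts. Adventitial fibroblasts (105.8, 474.8, 209.9 and 310.4 CPM), pericytes (63.3, 202.9, 146.3 and 243.9) and smooth muscle cells (121.7, 350.3, 169.0 and 231.5) were called higher in young mice at 4.49-fold, 3.21-fold and 2.88-fold, while their aged ratios of 1.48, 1.67 and 1.37 were below the 2-fold limit. The summed level of 8 alveolar fibroblast markers in that class also moved with ventilation, at 13925, 4744, 12968 and 6689 CPM, and its part in the result was not tested.

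In myeloid cells, Cdkn1a was not called higher after ventilation. Alveolar macrophages were at 318.9, 218.6, 296.2 and 240.4 CPM, and dendritic cells at 640.0, 441.3, 398.7 and 316.8, with every ventilation ratio below 1 and none past the 2-fold limit. Neutrophils were at 110.6, 78.4, 143.6 and 64.0 CPM, and the aged ratio of 0.446 (0.297 to 0.682) was the one Cdkn1a call lower after ventilation, which was lost when scaled by the median ratio over genes. T cells, with 17, 77, 60 and 55 UMIs, were called higher in young mice at 4.81-fold (2.82 to 8.68), and 16 of the 77 UMIs lay in 1 cell. The ratio of the aged to the young response had an interval below 1 in 9 of the 17 classes with enough counts and above 1 in venous endothelial cells alone, beside 12.4% and 13.1% of all gene-class pairs.

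**Figure D2:**
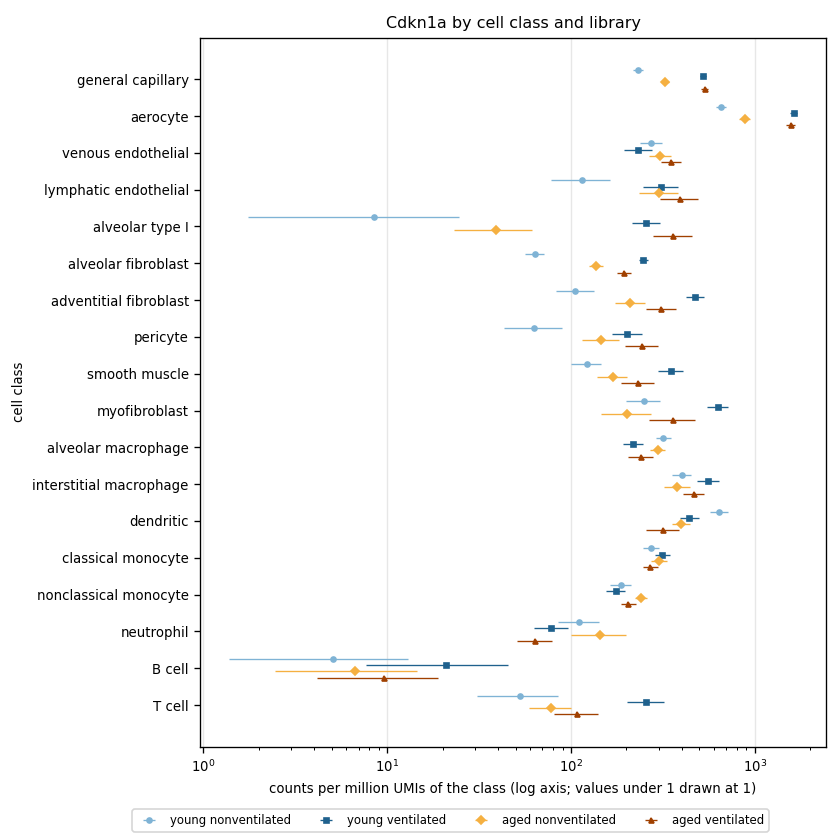
Cdkn1a level in CPM (x axis, log scale) in each of the 18 cell classes (y axis) and 4 libraries, with exact 95% counting intervals. In aerocytes, the ventilated libraries sit at 1632 and 1569 CPM and the nonventilated ones at 660.2 and 881.9, whereas B cells sit at the low end in every library.

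The other p53 targets did not follow Cdkn1a in size. Mdm2, the ligase that p53 itself induces and that returns p53 to low levels, was at 77.5 CPM in young nonventilated, 107.4 in young ventilated, 86.7 in aged nonventilated and 98.9 in aged ventilated cells. The ratio was 1.39 (1.30 to 1.47) in young and 1.14 (1.07 to 1.22) in aged mice. In young mice the Mdm2 ratio was below 1 in dendritic cells alone among the 18 classes. It was called higher in smooth muscle cells (2.14-fold, 1.46 to 3.15) and myofibroblasts (2.16-fold, 1.18 to 4.11) alone. In myofibroblasts, its 17, 35, 6 and 16 UMIs gave 47.7, 102.8, 29.0 and 119.6 CPM, called higher in aged mice as well (4.13-fold, 1.54 to 12.9). Lymphatic endothelial cells were called lower in aged mice (0.441, 0.191 to 0.940), with 10 UMIs after ventilation.

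Ccng1 encodes cyclin G1, a p53 target that guides a phosphatase to Mdm2. It was at 26.5, 19.6, 29.5 and 25.4 CPM over all cells and was not called there. In aerocytes it was at 32.4 CPM in young nonventilated, 11.3 in young ventilated, 48.9 in aged nonventilated and 15.9 in aged ventilated cells, so that both ventilated libraries lay below both nonventilated ones. The ratio was 0.349 (0.178 to 0.643) in young and 0.326 (0.169 to 0.595) in aged mice, in the class in which Cdkn1a was highest. Adventitial fibroblasts were called lower in young mice as well (0.311). Interstitial macrophages went the other way in aged mice, from 3 to 26 UMIs (7.22-fold, 2.21 to 37.3).

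Phlda3 encodes a p53-induced repressor of Akt at the membrane. Its level in aerocytes was 198.2 CPM in young nonventilated, 164.1 in young ventilated, 312.1 in aged nonventilated and 287.8 in aged ventilated cells, and both aged libraries lay above both young ones. The aged over young ratio was 1.57 (1.33 to 1.86) without and 1.75 (1.46 to 2.12) with ventilation, under the 2-fold limit. Alveolar fibroblasts, at 81.7, 92.0, 104.3 and 146.7 CPM, had the same order of ages. These 2 classes held on average 40.7% (fibroblasts) and 26.4% (aerocytes) of the Phlda3 UMIs of kept cells. Alveolar macrophages were called higher after ventilation in young mice, at 26.3 against 60.0 CPM (2.28-fold, 1.49 to 3.57), while the aged ratio from 49.5 to 85.9 CPM was 1.73. Venous endothelial cells were called lower in young mice (0.246).

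Gadd45a, a stress gene of growth arrest and DNA repair that p53 induces, was called higher over all cells at both ages. Its level was 26.8 CPM in young nonventilated, 69.4 in young ventilated, 25.2 in aged nonventilated and 83.2 in aged ventilated cells. The ratio was 2.59 (2.35 to 2.85) in young and 3.29 (2.98 to 3.64) in aged mice, and both were called. In alveolar fibroblasts it was at 27.1, 148.5, 38.2 and 206.4 CPM, or 119, 799, 141 and 571 UMIs. The ratio was 5.48 (4.52 to 6.71) in young and 5.40 (4.49 to 6.54) in aged mice, nearly the same at both ages in a class in which the Cdkn1a ratios were 3.91 and 1.41. At 2000 UMIs per cell, 4.76%, 19.9%, 8.39% and 27.2% of fibroblasts had a UMI, beside 0.00%, 2.22%, 1.12% and 4.49% of aerocytes.

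Alveolar macrophages gave 10.0, 21.2, 11.8 and 38.6 CPM of Gadd45a and were called higher at both ages (2.11-fold and 3.27-fold), but the young call was lost when 5% background RNA was taken off. Type I cells (7.24-fold), classical monocytes (2.34-fold), nonclassical monocytes (2.29-fold) and myofibroblasts (2.42-fold) were called higher in young mice. Neutrophils had the highest level in every library, at 308.2, 326.4, 258.5 and 380.4 CPM, with no call, and their share of cells differed between the libraries (122, 223, 59 and 256 cells), which enters the ratio over all cells. Smooth muscle cells were at 34.0, 63.3, 16.2 and 12.9 CPM, and both aged libraries were called lower than the young ones (0.476 without and 0.203 with ventilation).

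Gadd45b, the family member that NF-κB and TGF-β induce and that acts on MAP kinase signaling, differed between the ages in more classes than any other member. Over all cells it was at 203.6 CPM in young nonventilated, 352.1 in young ventilated, 236.6 in aged nonventilated and 279.9 in aged ventilated cells. The aged ratio was 1.18 (1.14 to 1.23), and with the deep barcodes added it was 0.920 (0.895 to 0.946). In young mice it was called higher in 10 of 18 classes and above 1 in 17. In aged mice it was called higher in 4 classes and lower in 2. The ratio of the aged to the young response had an interval below 1 in 14 of 18 classes and above 1 in neutrophils alone, read against the same 12.4% and 13.1%.

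Monocytes and alveolar macrophages had the Gadd45b response at both ages. Classical monocytes were at 39.0, 262.3, 74.4 and 260.5 CPM (6.72-fold in young, 3.50-fold in aged mice), nonclassical monocytes were called at 3.05-fold and 2.07-fold, and alveolar macrophages were at 30.1, 104.2, 22.2 and 90.1 CPM (3.46-fold and 4.07-fold). The type I cells were called at both ages too, at 3.61-fold and 2.31-fold. The median depth of classical monocytes was 14919 UMIs in young nonventilated and 5907 in young ventilated mice, and its part in the result was not tested.

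In mural and fibroblast classes, young and aged mice moved apart. In smooth muscle cells Gadd45b was at 280.7 CPM in young nonventilated, 666.8 in young ventilated, 279.2 in aged nonventilated and 154.4 in aged ventilated cells, so that the nonventilated libraries were alike and the ventilated ones lay on either side of them. The ratio was 2.38 (2.01 to 2.81) in young and 0.553 (0.407 to 0.743) in aged mice, and the aged ventilated level was 0.231 (0.173 to 0.306) of the young one. Pericytes were at 31.7, 187.8, 91.0 and 65.6 CPM, called higher in young mice (5.93-fold) and with 0.721 (0.424 to 1.20) in aged mice. Alveolar fibroblasts were at 414.1, 477.4, 565.5 and 275.4 CPM and were called lower in aged mice (0.487, 0.448 to 0.529), as were myofibroblasts (0.367, 0.249 to 0.529). With the deep barcodes added by nearest class, smooth muscle cells kept ratios of 2.31 and 0.549, whereas alveolar fibroblasts had 0.566 in aged mice, no longer past the limit.

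In aerocytes, the ventilation ratio of Gadd45b was above 1 at both ages. Its level was 107.1 CPM in young nonventilated, 406.6 in young ventilated, 156.6 in aged nonventilated and 211.4 in aged ventilated cells. The ratio was 3.80 (3.17 to 4.56) in young and 1.35 (1.08 to 1.69) in aged mice. General capillary cells were called higher in young mice (2.20-fold), and their aged ratio was 0.867 (0.710 to 1.06). The 7 immediate early genes, which respond to the handling and dissociation of tissue, were called higher in 8.73% and lower in 20.6% of 126 pairs in young mice, and higher in 2.40% and lower in 8.80% of 125 pairs in aged mice. Their part in the Gadd45b result was not tested.

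**Figure D3:**
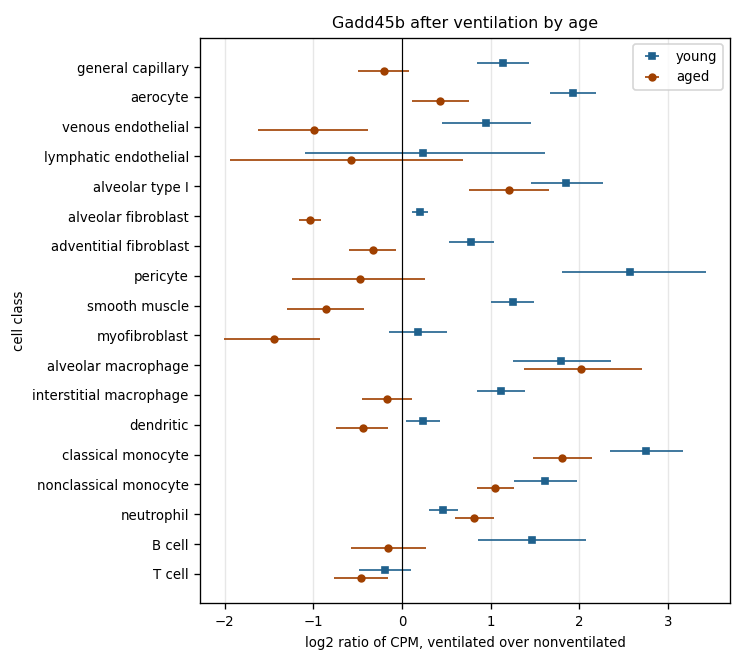
Log2 ratio of Gadd45b CPM, ventilated over nonventilated (x axis), in the 18 cell classes (y axis) for young (squares) and aged (circles) mice, with 95% counting intervals. In smooth muscle cells the young value is 1.25 and the aged one -0.85, whereas alveolar macrophages have high values at both ages.

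Sfn encodes 14-3-3σ, an epithelial protein that p53 induces and that holds cells in G2. It gave the largest ratios of the 9 genes, in type I cells. Over all kept cells it had 117, 1054, 146 and 226 UMIs, or 5.37, 46.4, 6.70 and 12.7 CPM, with a ratio of 8.65 (7.14 to 10.6) in young and 1.90 (1.54 to 2.36) in aged mice. In type I cells there was 1 UMI in young nonventilated, 474 in young ventilated, 3 in aged nonventilated and 31 in aged ventilated cells, found in 1 of 26, 28 of 36, 3 of 33 and 9 of 14 cells. The ratio was 343 (61.3 to 13587) in young and 25.6 (8.0 to 131) in aged mice. In young ventilated mice 1 cell held 122 of the 474 UMIs (25.7%). Neutrophils and alveolar fibroblasts, which are not epithelial, had a Sfn UMI in at most 3.72% of thinned cells, at median depths of 4000 to 12969 UMIs. Among thinned type I cells 0.00%, 44.4%, 3.03% and 14.3% had one, so the nonventilated shares did not exceed those of these classes. Sfn was not confined to epithelium at baseline. Of the 117 Sfn UMIs of kept young nonventilated cells, B cells, general capillary cells and aerocytes held 29.9%, 29.9% and 21.4%, and type I cells 0.855%. Of the 146 of kept aged nonventilated cells, the same classes held 13.7%, 19.2%, 10.3% and 2.05%, and unnamed cells 33.6%. These are not shares of all deposited Sfn UMIs. Barcodes over the limits on genes and UMIs held 288 more in young and 641 more in aged nonventilated mice.

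In kept type I cells, the aged ventilated level of Sfn was 0.172 (0.116 to 0.248) of the young one. This difference was far smaller among the deep barcodes left out by the limits. Those nearest to type I cells had 95.3 CPM in young nonventilated, 1139 in young ventilated, 200.3 in aged nonventilated and 891.0 in aged ventilated mice, and the aged over young ratio after ventilation was 0.782 (0.704 to 0.870). The secretory airway-rich barcodes had 80.3, 1481, 180.4 and 1234 CPM, with an aged over young ratio of 0.833 (0.788 to 0.881). The ventilation ratios of the deep barcodes nearest to type I were 12 in young and 4.45 in aged mice, called at both ages as in kept type I cells. Those of the secretory airway-rich barcodes were 18.4 and 6.84, called at both ages. Their secretory airway markers, given above, were lower after ventilation at both ages, and the part of this in the Sfn ratios was not tested. Kept type II cells, with 1, 69, 1 and 11 Sfn UMIs, were too few to be compared. At baseline the aged deep barcodes of both kinds were called higher in Sfn than the young ones, at 2.10-fold (1.60 to 2.79) and 2.25-fold (1.83 to 2.77). An unnamed cluster of shallow cells had 0, 360, 48 and 54 Sfn UMIs, or 0, 1175, 243.3 and 271.0 CPM. Its best marker match was type I cells, with ciliated airway cells next, and its leading genes included Scgb1a1, Krt8 and Krt18. There the 2 aged libraries lay close together, unlike in the deep barcodes. The aged ventilated level lay well below the young one, as in kept type I cells.

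**Figure D4:**
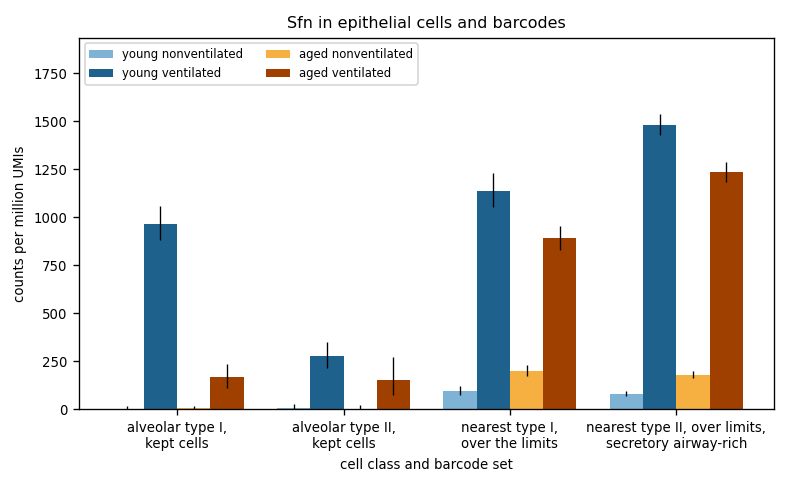
Sfn level in CPM (y axis) in the 4 libraries for kept type I and type II cells and for barcodes over the limits nearest to each of them, of which those nearest to type II are rich in secretory airway RNA, with 95% counting intervals. In kept type I cells the ventilated libraries sit at 967.4 (young) and 166.7 CPM (aged), but in the barcodes over the limits nearest to type I cells they sit at 1139 and 891.0.

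Both CDK inhibitor genes of the senescence locus, Cdkn2b and Cdkn2a, were called lower after ventilation in the aerocytes of young mice. Cdkn2b, the inhibitor of CDK4 and CDK6 that TGF-β induces, was measured in few classes. Over all kept cells, the base of the shares below, it was at 10.6, 8.19, 9.13 and 7.72 CPM. Aerocytes held 57.8%, 18.3%, 31.7% and 24.1% of its UMIs, with 134 UMIs (88.6 CPM) in young nonventilated, 34 (27.5) in young ventilated, 63 (68.5) in aged nonventilated and 33 (35.1) in aged ventilated cells. Both ventilated libraries lay below both nonventilated ones, at a ratio of 0.310 (0.206 to 0.455) in young and 0.512 (0.325 to 0.792) in aged mice. Type I cells had 112.7, 149.0, 130.0 and 80.7 CPM, with no call, and general capillary cells were called higher in aged mice (2.56-fold, 1.40 to 4.81), from 18 to 34 UMIs. The aerocyte markers within these cells went from 582.5 to 1257 CPM, and their part in the result was not tested.

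Cdkn2a was rare in every library, and aerocytes held 73.9%, 33.3%, 37.5% and 33.3% of its UMIs in kept cells. Over all kept cells it had 46 UMIs (2.11 CPM) in young nonventilated, 21 (0.925) in young ventilated, 40 (1.84) in aged nonventilated and 36 (2.03) in aged ventilated mice. The aged over young ratio without ventilation was 0.870 (0.555 to 1.36), so that a higher level with age was not detectable in these cells at this depth. Aerocytes had 34, 7, 15 and 12 of the UMIs. Their ratio after ventilation was 0.252 (0.0942 to 0.577) in young mice, called lower, and 0.781 (0.334 to 1.79) in aged mice. Some aerocytes carried both genes. Of 220, 220, 128 and 115 aerocytes, Cdkn2a was found in 14, 6, 5 and 5 and Cdkn2b in 86, 27, 36 and 19. Both were found in 10, 3, 2 and 2. These cells were not thinned, their median depths were 7200, 4671, 6978.5 and 8435 UMIs, and the part of depth was not tested.

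The deep barcodes left out by the limits gave another picture of Cdkn2a with age. They had 27, 39, 92 and 74 UMIs, with an aged over young ratio of 2.87 (1.85 to 4.58) without ventilation. Those nearest to alveolar macrophages (109, 139, 115 and 68 barcodes) had 11, 12, 74 and 31 UMIs, or 3.52, 2.92, 22.5 and 14.3 CPM, and both aged libraries lay above both young ones. The aged over young ratio was 6.38 (3.37 to 13.3) without and 4.89 (2.44 to 10.4) with ventilation. The UMIs lay in 8, 7, 23 and 10 barcodes, with at most 9 in 1 barcode, at median depths of 26147 to 28509 UMIs. Kept alveolar macrophages had 0, 2, 2 and 6 UMIs. The 8 alveolar macrophage markers of the deep barcodes summed to 9676, 9133, 9799 and 13954 CPM with none at 0, beside 40.3, 46.7, 30.7 and 49.7 CPM for 7 interstitial macrophage markers and 73.0, 58.4, 250.5 and 208.8 CPM for 7 neutrophil markers. The neutrophil markers were thus higher in the aged barcodes, and their part in the result, as that of droplets with more than 1 cell, was not tested.

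**Figure D5:**
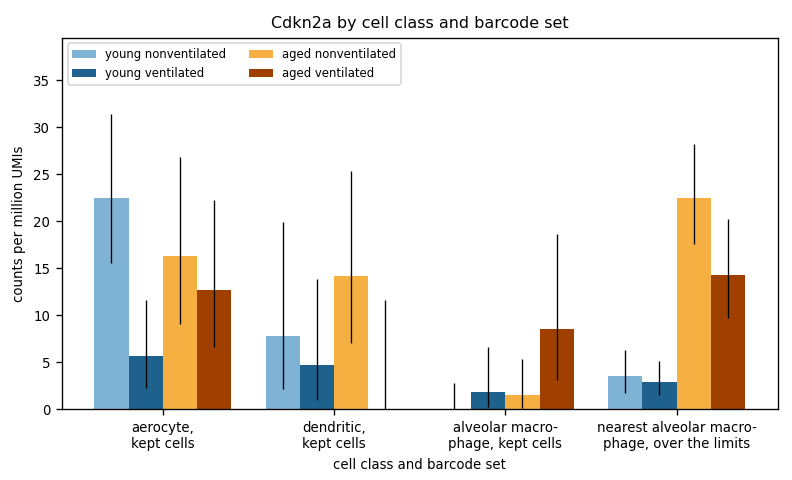
Cdkn2a level in CPM (y axis) in the 4 libraries for kept aerocytes, dendritic cells and alveolar macrophages and for barcodes over the limits nearest to alveolar macrophages, with 95% counting intervals. The aged libraries sit at 22.5 and 14.3 CPM and the young ones at 3.52 and 2.92 in the barcodes over the limits, whereas kept aerocytes have their highest level in young nonventilated mice.

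To compare the ages directly, members were counted without and with ventilation. Without ventilation, 8 of 90 pairs (8.89%) were called higher in aged cells and 2 lower, beside 3.38% and 2.58% of all pairs. Of these 8, Cdkn1a gave 4: lymphatic endothelial cells (2.63-fold), type I cells (4.61-fold), alveolar fibroblasts (2.17-fold) and pericytes (2.31-fold). The others were Gadd45b in pericytes (2.87-fold) and adventitial fibroblasts (2.00-fold), Phlda3 in nonclassical monocytes (2.33-fold) and Gadd45a in classical monocytes (2.14-fold). The Gadd45a call was lost when scaled by the median ratio over genes. The type I call of Cdkn1a, on 3 young and 18 aged UMIs, was lost when 5% background RNA was taken off. The deep barcodes nearest to type I went the other way, as given above. The 2 lower pairs (2.22%) were Gadd45a in smooth muscle cells (0.476) and B cells (0.449). With ventilation, no pair of 94 was called higher in aged cells and 10 (10.6%) were called lower, beside 4.58% and 4.57% of all pairs. The lower pairs were Gadd45b in smooth muscle cells (0.231), venous endothelial cells (0.326), pericytes (0.349), dendritic cells (0.449) and T cells (0.449), Gadd45a in smooth muscle cells (0.203) and myofibroblasts (0.255), Cdkn1a (0.422) and Mdm2 (0.438) in T cells, and Sfn in type I cells (0.172). The comparisons with age and with ventilation share libraries, so a high young ventilated or a low young nonventilated value enters 2 of them.

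Across the 72 points of class and library, the level of Cdkn1a varied with that of Mdm2 (Pearson r = 0.58 on the log2 scale) and hardly with that of Gadd45b (0.05). These points share libraries, depth and cell classes, and the values are descriptions. Among 7385 genes, those most like Cdkn1a were Cmtm3 (0.72), Rtn4 (0.71) and Rela (0.70), those most like Mdm2 were Cltc (0.73), Sdcbp (0.72) and Rab5c (0.68), and those most like Gadd45b were Eif1 (0.77), Smim3 (0.63) and Pnrc1 (0.61).

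Other genes of the pathway were counted by the same rule, and are read against 8.76% of all pairs called higher and 13.8% lower in young mice, and 5.71% and 9.54% in aged mice. The 10 regulators of p53 had 4 higher (4.30%) and 11 lower calls (11.8%) in 93 pairs in young mice, and 0 higher and 5 lower (5.81%) in 86 pairs in aged mice, none above the shares of all pairs. Trp53 itself was at 37.7 and 49.9 CPM over all cells in young mice (1.32-fold) and was called higher in 3 classes, and Atm, a damage kinase upstream of p53, was called lower in 4 young and 3 aged classes. The 10 death genes that p53 induces had 21 higher (20.4%) and 7 lower calls (6.80%) of 103 in young, and 15 higher (15%) and 2 lower (2.00%) of 100 in aged mice. Fas, the death receptor, was called higher in 7 young and 5 aged classes, among them alveolar fibroblasts (2.69-fold and 2.01-fold), and Aen, an exonuclease of apoptosis, in 6 and 4, among them general capillary cells (2.49-fold and 2.06-fold). Bax, which opens the mitochondrial membrane, was called higher in 6 and 2. Other death genes went the other way. Trp53inp1 was called lower in 3 young classes, and Bbc3 and Perp in 1 young class each. Eda2r and Apaf1 were called lower in 1 aged class each. The 13 repair and metabolism targets had 12 higher (7.79%) and 34 lower calls (22.1%) of 154 in young mice, and 5 higher (3.23%) and 13 lower (8.39%) of 155 in aged mice, the latter both under the shares of all pairs. Sesn1, a stress-induced inhibitor of mTORC1 signaling, was called lower in 8 young classes, such as alveolar fibroblasts (0.349), while Plk3, a stress kinase, was called higher in 4.

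The other inhibitors and cell cycle genes moved in both directions. Gadd45g, the third Gadd45 gene, was called higher in 12 young and 5 aged classes, with 4.37-fold and 2.45-fold in general capillary cells. Cdkn1b, which encodes the CDK inhibitor p27, was called lower in 9 young and 3 aged classes, with 0.295 and 0.471 in aerocytes. The 6 genes of this list had 14 higher (24.1%) and 16 lower calls (27.6%) of 58 in young, and 9 higher (16.4%) and 10 lower (18.2%) of 55 in aged mice. The 10 genes of the G1 to S step had 15 higher (13.9%) and 27 lower calls (25%) of 108 in young, and 8 higher (7.62%) and 14 lower (13.3%) of 105 in aged mice. Ccnd3, the D-type cyclin of CDK4 and CDK6, was called lower in 14 young and 5 aged classes, and Ccnd2, another D-type cyclin, was called higher in 6 and 2. The 10 proliferation genes had 14 higher (26.9%) and 1 lower call (1.92%) of 52 in young, and 3 higher (5.56%) and 6 lower (11.1%) of 54 in aged mice, with Mki67 called higher in 4 young classes.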

How the data were processed

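Left lung cells of 4 pools of mice, 1 library each, were measured by 10x 3′ scRNA-Seq. The authors aligned reads to mm10 with Cell Ranger 7.0.0 and deposited raw UMI counts per gene and barcode; intronic reads are counted by default in that version. The libraries were merged without integration. Barcodes that had between 200 and 5000 genes, no more than 10% of UMIs from mitochondrial genes and UMIs up to the 93rd percentile (21021) were kept and clustered with Seurat 5.3.0 in R 4.3.3 (2000 variable genes without the members and 71 other listed genes, 37 principal components, resolution 0.5). Classes were named from marker lists. Upper limits on genes and UMIs were the treatment of doublets; Scrublet (scanpy 1.11.5) marked 48 cells (0.505%), which were not removed. The 93rd percentile was taken over the 10229 barcodes within the other limits. The study kept more cells than the 9514 kept here, so some of the deep barcodes left out were probably among its cells.

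Counts were summed per class and library in Python 3.11.15 with scipy 1.17.1 and divided by class UMIs (CPM). Intervals were Poisson, conditional binomial or Clopper-Pearson; the interval of the aged over young response was taken on the log scale. The call rule was tested on simulated data in which very abundant genes were left unchanged, since a large change in these shifts the CPM of every other gene. Likeness used log2(CPM + 10) over genes whose mean reached 20 CPM. Alternatives varied filters, scaling, weighting, depth, background, doublets, clustering, fold and count limits. The members and lists were chosen with earlier results of these data known. All members are named, and of other lists up to 3 genes called in the most classes per direction. Putting barcodes over the limits in the nearest class was chosen after seeing the data. Of the 8788 kept cells in named classes, 95.2% returned to their own class, and unnamed cells were not in this check. The class profiles were summed from these same cells, so the share does not measure how well deep barcodes were placed.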

Additional observations from a re-analysis of the deposited data

Results flagged for a closer look

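Gadd45b moved in opposite directions after ventilation in young and aged mice in 5 classes in which both counting intervals left out no change; with 1 library per group the differences were not tested between mice. As log2 ratios, the young and aged values were 0.95 and -0.99 in venous endothelial cells, 0.21 and -1.04 in alveolar fibroblasts, 0.78 and -0.33 in adventitial fibroblasts, 1.25 and -0.85 in smooth muscle cells, and 0.23 and -0.44 in dendritic cells.

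Barcodes left out for more than 5000 genes or 21021 UMIs, which enter none of the main comparisons, carried signals above their nonventilated or young counterparts. Sfn was 11.7-fold higher after ventilation in young and 5.17-fold higher in aged barcodes. Gadd45a was 2.67-fold higher in young and 2.06-fold higher in aged barcodes. Cdkn2a was 2.87-fold higher in aged than in young nonventilated barcodes.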

How the results depend on the processing

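Of 146 values under 14 alternative settings, 107 stayed within 1.5 times the reported count or within the counting interval of the reported ratio. The other 39 moved further. A reversal could be scored only for the ratios of Cdkn1a and Mdm2, and 0 of these reversed. Counts of pairs and the Cdkn2a ratio, whose reported interval included no change, could not be scored as reversed. Of the 50 values of ratios among the 146, 48 kept their direction, and those that did not were of Cdkn2a. Pairs called higher in young ventilated mice (30) fell to 13 with each cell thinned to 1000 UMIs, and those called lower (5) became 8 without the UMI limit, 1 when thinned and 10 with the barcodes over the limits put in the nearest class. In aged mice, higher pairs (11) became 7 at 5% mitochondrial UMIs, 4 when thinned, 21 at 1.5-fold and 19 with the nearest class, and lower pairs (5) became 8, 2 and 8 under the first 3 of these. In aged against young nonventilated cells, higher pairs (8) became 4 when thinned and 19 at 1.5-fold, and lower pairs (2) became 4 under median ratio scaling, with high doublet scores left out or with the nearest class, 1 when thinned or at resolution 0.18, and 5 at 1.5-fold. In aged against young ventilated cells, higher pairs (0) became 2 without the UMI limit or at 5% mitochondrial UMIs, 9 at 1.5-fold and 6 with the nearest class, and lower pairs (10) became 5 when thinned and 20 at 1.5-fold.

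The log2 ratio of Cdkn1a over all cells in young mice (0.87) was 0.79 without the UMI limit or over all barcodes, 0.80 with the nearest class, 0.99 as a mean over cells, 0.96 when thinned and 0.93 at a fixed cell makeup. In aged mice (0.44) it was 0.32 without the UMI limit, 0.50 under median ratio scaling and 0.53 at a fixed makeup. Mdm2 in aged mice (0.19) was 0.093 without the UMI limit and 0.047 at a fixed makeup. Cdkn2a, aged over young (-0.20), was -1.17 as a mean over cells but 0.74 over all barcodes or with the nearest class, because the limits leave out the barcodes that hold most aged UMIs. For the other moves the cause was not tested. No paired analysis was possible because each group has 1 library and no replicate.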

Other observations

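The 5 glucocorticoid response genes were counted by the same rule as the members, with no test between the ages. In young mice they had 3 higher (3.53%) and 24 lower calls (28.2%) of 85 after ventilation, beside 8.76% and 13.8% of all pairs. In aged mice they had 13 higher (14.9%) and 8 lower (9.20%) of 87, beside 5.71% and 9.54%. Aged ventilated cells had 15 higher (17.6%) and 1 lower (1.18%) of 85 pairs against young ventilated ones, beside 4.58% and 4.57%. Fkbp5, a co-chaperone that glucocorticoids induce, was called higher after ventilation in 3 young and 9 aged classes, and Tsc22d3, another induced gene, was called lower in 11 young classes.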
